A study of Schizosaccharomyces pombe with 16 samples.

Results

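*cid14Δ* cells were compared with wild-type cells on 2 of the 16 tiling arrays of the series, those titled as its replicates 1 and 2. Cid14 is the non-canonical poly(A) polymerase of the fission yeast TRAMP complex and the orthologue of budding yeast Trf4 and Trf5. TRAMP adds short oligo(A) tails to nuclear RNAs, among them precursors and faulty forms of tRNA, rRNA and snoRNA, and hands them to the exosome, the nuclear 3′ to 5′ RNA degradation machine. Rrp6 is a 3′ exonuclease of the nuclear exosome. Cryptic unstable transcripts, which the exosome removes, are commonly divided into antisense RNAs upstream of a gene (PROMPTs), antisense transcripts within a gene (AS) and transcripts of the sense strand downstream of a gene.

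The *cid14Δ* strain carried a kanMX6 cassette in place of *cid14*. According to the strain list of the study it otherwise had the mating type and auxotrophic markers of its wild type. Cultures of both were in YEA medium at 30 °C and were harvested at an OD between 0.5 and 0.8. RNA was isolated with TRI Reagent, rRNA was depleted with biotinylated probes, and cDNA was made with anchored oligo(dT) and random hexamers. The 2 arrays were biological replicates. Mutant cDNA carried Cy5 and wild-type cDNA Cy3, with no array in the opposite orientation. Any preference of a probe for a dye is therefore part of its ratio to wild type, and drops out only between mutants. The 14 other arrays held *rrp6Δ*, *red1Δ*, *pab2Δ*, *iss10Δ* and *sen1Δ* against wild-type strains (2 arrays each), *rmn1Δ* against wild type (1 array), *mtl1-17* against an mtl1-flag strain (2 arrays, grown at 23 °C and then moved to a higher temperature) and *mmi1Δ mei4-P572* against *mei4-P572* (1 array). The wild types of *rrp6Δ*, *pab2Δ* and *sen1Δ* were other strains than that of *cid14Δ*. What a mutant and its own wild type share drops out of the ratio. Other effects of the strain background may remain in a difference between these mutants and *cid14Δ*.

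Each array held 174063 tiling probes that alternate between the strands, 147054 of them at 40 bp resolution and 27009 at 250 bp. On *cid14Δ* array 1, 60.73% of the probes were well above background in the wild-type channel and 68.17% in the mutant channel, and on array 2 57.83% and 61.07%. No probe was saturated. No column of the files assigns a gene to a probe, so transcripts are named here by the first and last probe number of their strand. A sense unit was a stretch of same-strand probes with a mean control signal above 7.89 on the log2 scale over the 16 arrays. There were 4071 such units, 2541 of them on the high-resolution part. A 3′ flank was the sense strand up to 600 bp downstream of a unit of the high-resolution part, where no other unit lay within that distance. There were 451 flanks, with 683 PROMPT and 683 AS features defined in the same way on the antisense strand. Each value is the log2 ratio of *cid14Δ* to wild type, averaged over the probes of a feature, each array being shifted so that its high-resolution sense units had a mean of 0. All 5888 features were tested with limma against 0, with Benjamini-Hochberg adjustment over all of them.

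The deleted gene was lost from the mutant channel. Probes were placed on the chromosomes by matching the strand pattern of the units to the genes of the ASM294v3 assembly. At each of the 8 genes named in the labels as deleted, the mean over the placed probes was lower in its own mutant than on all other arrays. At *pab2* the loss was partial, with a median log2 ratio of −1.09 over its 18 probes. At the place of *cid14* lay probes 152864 to 152870, 4 probes of a strand. Their log2 signal was 11.52 and 11.62 in wild type and 3.88 and 3.57 in *cid14Δ*. The log2 ratio was −7.62 and −8.06 on the 2 arrays and between −0.22 and 0.41 on the 14 others. On array 2 none of the 4 probes was well above background in *cid14Δ*, and on array 1 a single one was. The lowest 3 neighbouring probes of a strand on the *cid14Δ* arrays lay within these 4.

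Relative to the mean of the high-resolution sense units, most sense RNAs were close to wild type in *cid14Δ*. At an adjusted p under 0.05 (limma), 341 of the 4071 units were higher (8.38%) and 276 lower (6.78%), against 10.5% higher and 8.68% lower among all features. On the high-resolution part 227 were higher (8.93%) and 197 lower (7.75%), and on the low-resolution part 114 (7.45%) and 79 (5.16%). Of those called, 64 were at least 2-fold higher and 42 at least 2-fold lower, where 167 and 53 of all 5888 features were. The median log2 ratio over the units was −0.0048. Each array had been shifted to a mean of 0 over its high-resolution units, so this median does not measure closeness to wild type. The spread does so relative to that mean: the lowest and highest deciles of the units began at −0.43 and 0.44. The counts rest on both arrays. They were 97 higher and 45 lower without array 1, and 157 and 121 without array 2.

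**Figure D1:**
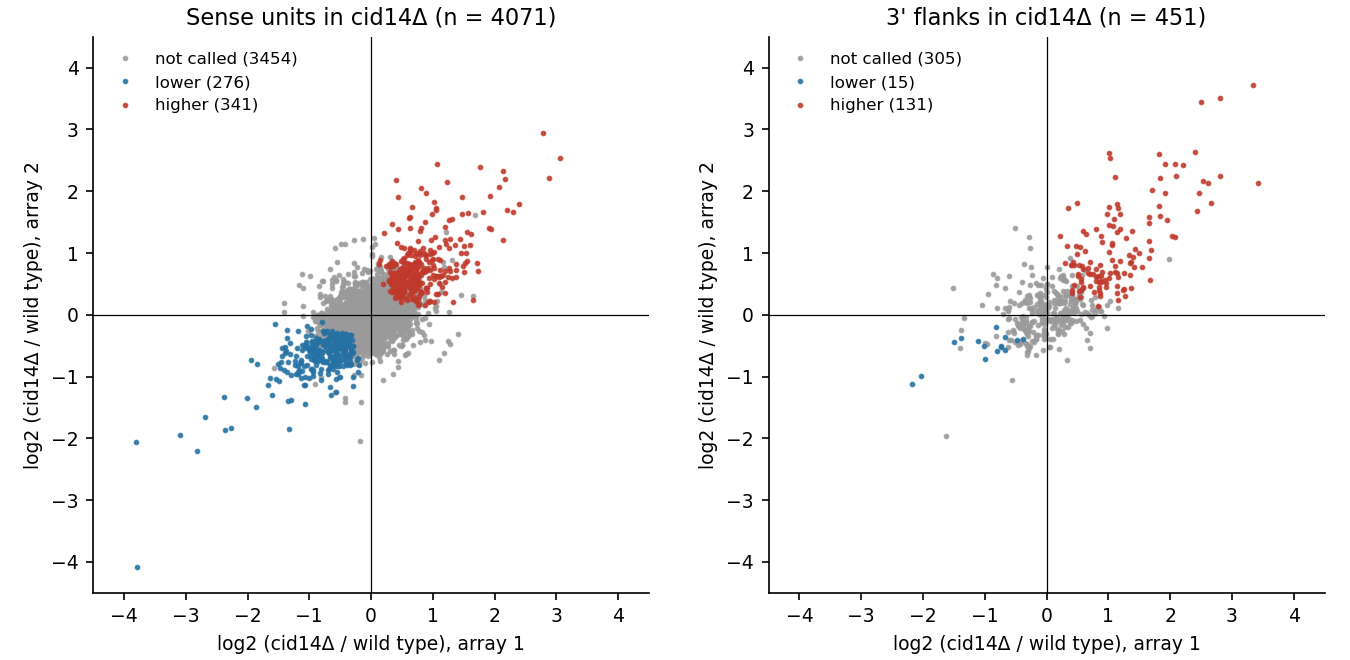
Log2 ratio of *cid14Δ* to wild type on array 1 (x axis) and array 2 (y axis), with a point for each of the 4071 sense units (left) and the 451 3′ flanks (right). Red and blue points passed an adjusted p of 0.05, 341 higher and 276 lower among the units and 131 higher and 15 lower among the flanks.

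The share of units called was read by their length and brightness. Of the 433 high-resolution units with under 10 probes, 71 were higher (16.4%) and 43 lower (9.93%). Of the 365 units with 40 probes or more, 27 were higher (7.40%) and 9 lower (2.47%). The share that was higher was 13.8% of the 217 units with a wild-type log2 signal under 8, 7.05% of the 794 units between 10 and 12, and 13.7% of the 234 units at 12 or more. These shares are descriptions, and their differences were not tested. Along the 170 units of the high-resolution part that were higher and long enough to be divided in 3, the mean log2 ratio was 0.74 ± 0.0054 in the 5′ part, 0.76 ± 0.020 in the middle and 0.75 ± 0.016 in the 3′ part (SD, n = 2 arrays). Neither end of these units, which were chosen on the same values, stood out.

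Among the sense units that were higher, the unit of probes 42633 to 42643 (6 probes) was above the arrays of the other mutants. Its log2 signal was 8.62 and 8.35 in wild type and 11.66 and 10.91 in *cid14Δ*. The log2 ratio was 3.06 and 2.54, a mean of 2.80 (SE 0.17, adjusted p = 3.21e-06, limma), and the 14 other arrays lay between −1.05 and 0.82. In wild type 1 of its probes was well above background on neither array, so its fold is a bound, at least 6.57-fold with signals below the lowest signal well above background set to that signal (the floor). A second such unit, probes 138734 to 138750 (9 probes), was bright in wild type, with a log2 signal of 11.32 and 11.36, and reached 14.17 and 13.59 in *cid14Δ*. Its log2 ratio was 2.87 and 2.21, with a mean of 2.54 (SE 0.18, adjusted p = 5.49e-06, limma), and the 14 other arrays stayed at or below 1.05. Also among them, probes 151944 to 151948 (3 probes), at 2.20 and 1.70, was likewise above the 14 other arrays, of which the highest was 1.37. In the unit of probes 173968 to 173972 (3 probes), *cid14Δ* had 2.13 and 2.32 and the highest of the other arrays, of *rrp6Δ*, had 1.90.

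The highest mean was that of the unit of probes 173938 to 173944 (4 probes), 2.86 (SE 0.44, adjusted p = 0.00118, limma), from 2.79 and 2.94 on the 2 arrays. In wild type 3 and 2 of its probes were well above background. With the dim signals set to the floor it was at 2.38, below the units of probes 42633 to 42643 (2.72) and 138734 to 138750 (2.54). The other arrays ranged from −0.99 to 5.69, so a different mutant was higher still. Other units among the 10 highest were also high elsewhere. The unit of probes 9302 to 9352, with 26 probes the longest of them, had 2.17 and 2.21 in *cid14Δ*, 2.61 and 2.67 in *rrp6Δ* and a median of 2.46 over the 14 other arrays. Tested against the mean of the 8 other mutants it was at −0.15 (adjusted p = 0.659, limma). Units of probes 37066 to 37076 (2.08), 172853 to 172857 (2.07) and 97346 to 97362 (1.98) had high ratios in *rrp6Δ* too, with differences between the 2 mutants of −0.32, −0.18 and −0.50 that did not pass the test. A further unit, of probes 29512 to 29522 (2.09), differed from *rrp6Δ* by 2.55 (adjusted p = 2.66e-05, limma), and 2 of the 14 other arrays exceeded both *cid14Δ* arrays, up to 2.91.

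Among the sense units that were lower, the lowest was the unit of probes 152856 to 152872, which holds the 4 probes lost with *cid14* (−3.93, SE 0.12, adjusted p = 2.3e-09, limma). Next to each other, on probes 9400 to 9493, lay 3 units whose *cid14Δ* arrays were both below the 14 others. That of probes 9413 to 9449 (19 probes) had a log2 signal of 11.67 and 10.22 in wild type and 8.95 and 8.59 in *cid14Δ*. Its log2 ratio was −2.69 and −1.65, with a mean of −2.17 (SE 0.26, adjusted p = 0.000217, limma), and the 14 other arrays lay between −0.78 and 1.12. Probes 9461 to 9493 (17 probes) had −2.37 and −1.87 against −0.70 to 0.53 on the other arrays. Probes 9400 to 9420, on the opposite strand and overlapping the first unit, had −2.26 and −1.82 against −1.33 to 0.75.

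In another low unit, probes 2257 to 2283 (14 probes) had −2.82 and −2.21 (mean −2.51, SE 0.31, adjusted p = 0.000257, limma), below the 14 other arrays, of which the lowest was −1.90. A second group of low units, on probes 2580 to 2729, was low on most of the arrays. Probes 2681 to 2729 (25 probes) had −3.80 and −2.06 in *cid14Δ*, −4.45 and −4.36 in *rrp6Δ* and a median of −3.11 over the 14 other arrays. Probes 2580 to 2636 (29 probes) had −3.09 and −1.94, with a median of −2.18 over the others, and the unit of probes 2621 to 2651 had −2.01 and −1.35, with a median of −1.89. Against the mean of the 8 other mutants these 3 units were at −0.14, −0.35 and 0.17, and none passed the test. Units on probes 120004 to 120034 (16 probes, −2.37 and −1.33) and 148645 to 148653 (5 probes, −1.87 and −1.50) complete the 10 lowest. For the first, the 14 other arrays had a median of −0.18 but went down to −3.10, in *red1Δ*. Against the mean of the 8 other mutants it was at −1.17 and did not pass the test (adjusted p = 0.0533, limma). For the second, the other arrays had a median of −0.39 and went down to −2.16, in *mmi1Δ mei4-P572*. Against the same mean it was at −1.09 (adjusted p = 0.00408, limma). Without array 1, the units of probes 120004 to 120034 and 2621 to 2651 were at −1.33 and −1.35 and did not pass the test (adjusted p = 0.1236 and 0.09864, limma).

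**Figure D2:**
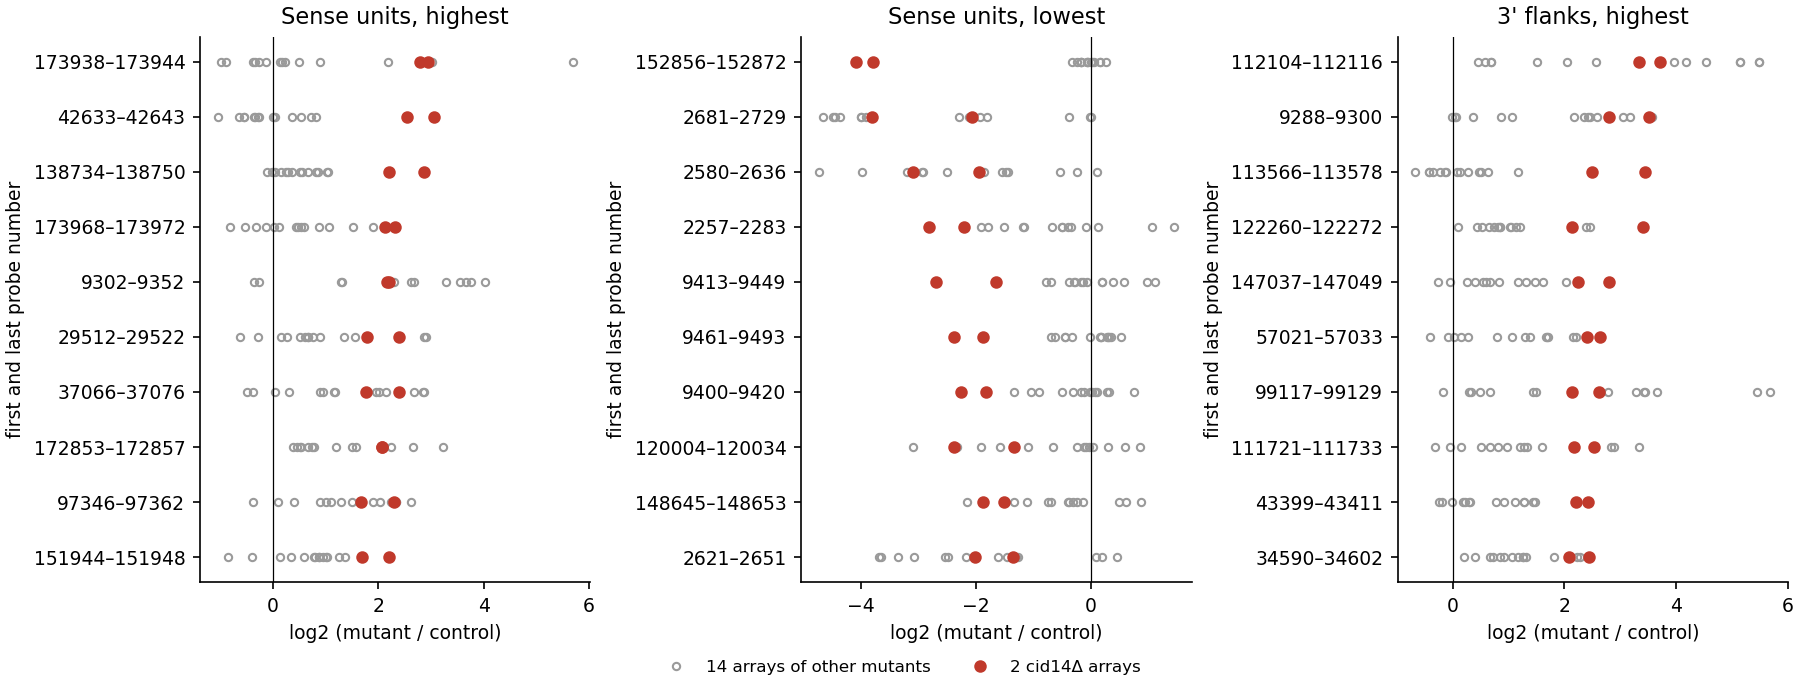
Log2 ratio of mutant to control (x axis) of the 10 highest and 10 lowest sense units and the 10 highest 3′ flanks in *cid14Δ*, each on a line named by its probe numbers. Filled points are the 2 *cid14Δ* arrays and open points the 14 arrays of other mutants, which lie apart from *cid14Δ* in the units of probes 42633 to 42643 and 9413 to 9449 and around it in the units of probes 9302 to 9352 and 2681 to 2729.

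Many 3′ flanks were higher in *cid14Δ*. Of the 451 3′ flanks, 131 were higher (29%) and 15 lower (3.33%) at an adjusted p under 0.05 (limma), against 10.5% and 8.68% of all features. Of these, 63 were at least 2-fold higher and 2 at least 2-fold lower, where 167 and 53 of all 5888 features were. The mean log2 ratio over the flanks was 0.31 on array 1 and 0.34 on array 2, and the median flank was at 0.20. Most flanks were dim, with a median wild-type log2 signal of 5.30. With every signal below the lowest signal well above background set to it, a log2 signal of 5.93 on array 1 and 5.70 on array 2, 89 flanks were higher and 5 lower, and 88 of the 89 were among the 131. Without array 1, 67 flanks were higher and 0 lower, and without array 2 89 and 12.

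The rise was highest close to the end of the unit. Averaged over the 451 flanks, the log2 ratio was 0.24 ± 0.059 (SD, n = 2 arrays) at the last probe of the unit, 0.45 ± 0.049 at 80 bp and 0.56 ± 0.015 at 160 bp. It then fell to 0.42 at 240 bp, 0.31 at 320 bp, 0.23 at 400 bp and 0.14 at 560 bp. With the dim signals set to the floor, the mean was highest at 80 bp, at 0.28, and was 0.26 at 160 bp and 0.25 at 240 bp. The antisense strand of the same flanks lay between −0.0078 and 0.075 from 40 bp to 520 bp. Inside the units, 160 bp before the last probe, the sense strand was at 0.0028. In *rrp6Δ* the same flanks had 0.94 ± 0.037 at 160 bp and still 0.68 ± 0.10 at 560 bp. The drop between 160 bp and 560 bp in *cid14Δ* was 0.42 ± 0.046 (SD, n = 2 arrays), and 0.14 with the dim signals set to the floor.

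**Figure D3:**
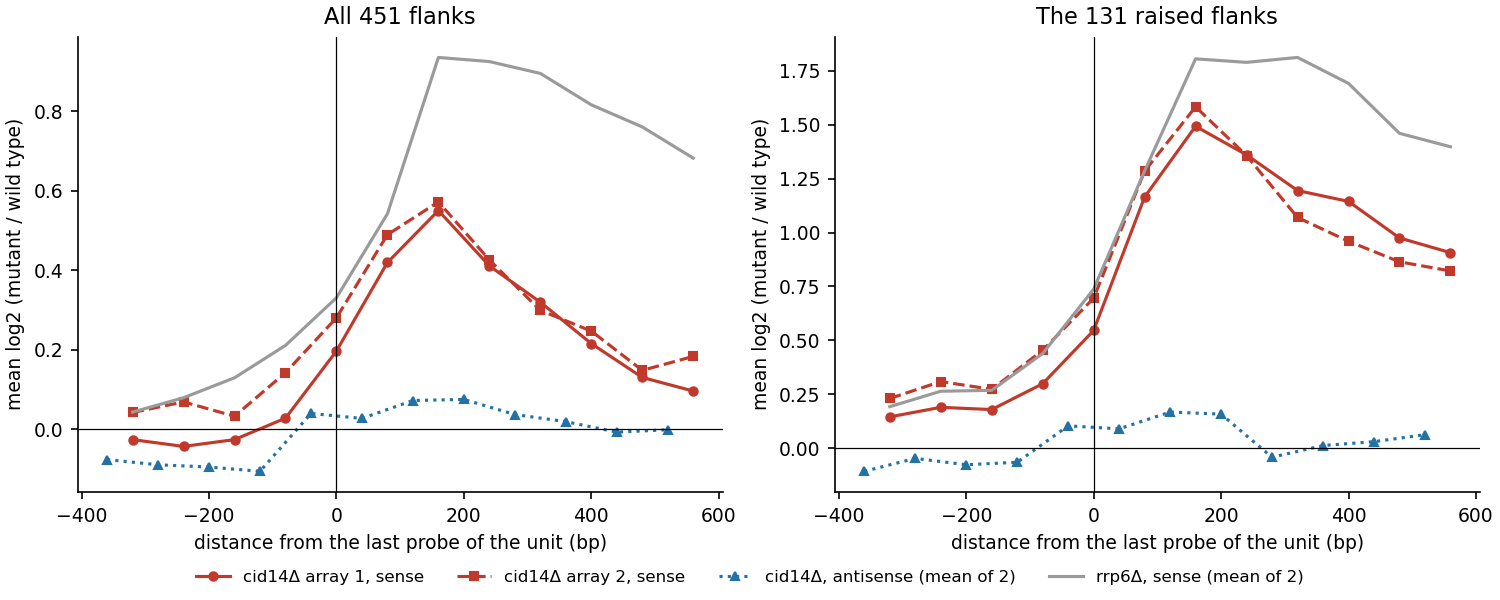
Mean log2 ratio of mutant to wild type (y axis) by distance from the last probe of the unit (x axis, bp, negative inside the unit) over the 451 3′ flanks (left) and over the 131 flanks that were higher in *cid14Δ* (right, chosen on these values). Without a floor on dim signals, the sense strand of both *cid14Δ* arrays peaks at 160 bp (with the floor, over all flanks, at 80 bp), the antisense strand stays near 0, and the sense strand of *rrp6Δ* is higher at 160 bp and falls less.

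Raised flanks were also found behind units that were not called. Of the 451 flanks, 367 followed a unit that was not called in either direction, and 99 of these flanks were raised (27.0%), against 29% of all flanks. Of the 131 raised flanks, 112 were above their own unit on both arrays, as were 219 of all 451 flanks. The median log2 ratio was 0.97 for the raised flanks and 0.17 for their units. Among flanks whose own unit was called higher, 27 of 50 were raised, and among those whose unit was called lower, 5 of 34. Where the next unit was on the same strand 97 of 329 flanks were raised (29.5%), and where it was on the opposite strand 33 of 121 (27.3%). Of the units with a wild-type log2 signal of 11 or more, 47.4% had a raised flank, 31.1% of those between 9 and 11, and 16.4% of those below 9. These shares were not tested against each other, and dimness of the flank itself was not part of the split.

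The 10 highest flanks had mean log2 ratios from 2.26 to 3.53. In most of these flanks few of the 7 probes were well above background in wild type. Folds, where given, are therefore bounds, with signals below the floor set to it. The flanks of probes 34590 to 34602 (6 and 4 of 7 probes on the 2 arrays) and 122260 to 122272 (4 and 3) had more. The flank of probes 112104 to 112116 had a log2 signal of 5.08 and 4.30 in wild type and 8.39 and 8.03 in *cid14Δ*. Its log2 ratio of 3.34 and 3.71 (adjusted p = 1.72e-06, limma) corresponds to at least 4.35-fold, and *rrp6Δ* was higher, at 5.48 and 5.15. The flank of probes 9288 to 9300 lies downstream of the unit of probes 9302 to 9352 named above. It had 2.81 and 3.51, at least 5.09-fold, where *rrp6Δ* had 3.04 and 3.57. The flank of probes 99117 to 99129 had 2.62 and 2.13 and was far below *rrp6Δ*, at 5.44 and 5.69 (difference −3.19, adjusted p = 1.91e-06, limma).

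Other flanks were higher in *cid14Δ* than in *rrp6Δ*. The flank of probes 113566 to 113578 had 2.50 and 3.44 in *cid14Δ*, at least 2.60-fold, and 0.63 and 0.27 in *rrp6Δ* (difference 2.52, adjusted p = 0.000123, limma), and none of the 14 other arrays exceeded 1.18. The flank of probes 43399 to 43411 had 2.21 and 2.43 against 0.31 and 0.19 (difference 2.07, adjusted p = 0.000239, limma). The flank of probes 122260 to 122272 had 3.42 and 2.14 against 1.20 and 1.14 (difference 1.61, adjusted p = 0.00368, limma). At this flank the *sen1Δ* arrays, at 2.38 and 2.47, were above *cid14Δ* array 2, so the rise was not particular to *cid14Δ*. For the flanks of probes 147037 to 147049 (2.53), 57021 to 57033 (2.52), 111721 to 111733 (2.35) and 34590 to 34602 (2.26) the difference from *rrp6Δ* did not pass the test.

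Tested directly against *rrp6Δ*, 1271 of all features were lower in *cid14Δ* (21.6%) and 518 higher (8.8%). Of the 451 flanks, 156 were lower in *cid14Δ* than in *rrp6Δ* (34.6%) and 29 higher (6.43%), with a median difference of −0.43. Of the 683 PROMPTs, 341 were lower (49.9%) and 24 higher (3.51%), and of the 683 AS features 233 were lower (34.1%) and 39 higher (5.71%). Among sense units 541 were lower (13.3%) and 426 higher (10.5%). Against wild type, 77 PROMPTs were higher (11.3%) and 73 lower (10.7%) in *cid14Δ*, and 68 AS features were higher (9.96%) and 147 lower (21.5%). With the dim signals set to the floor, 58 PROMPTs were higher and 14 lower, and 37 AS features were higher and 23 lower. Against the mean of the 8 other mutants, where a preference for a dye that the arrays share drops out, 42 flanks were higher (9.31%) and 37 lower (8.2%) in *cid14Δ*, while 32 PROMPTs were higher (4.69%) and 203 lower (29.7%), and 32 AS features higher (4.69%) and 82 lower (12%). Sense units numbered 212 higher (5.21%) and 206 lower (5.06%), and of all features 318 (5.4%) and 528 (8.97%).

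tRNA genes were among the places with the highest ratios in *cid14Δ*. On the high-resolution part, 102 tRNA, 26 rRNA, 28 snoRNA and 4 snRNA genes of the assembly were placed on the probes, and the strand with the brighter control signal was taken as the strand of the gene. Over the 102 tRNA genes the mean log2 ratio was 2.31 on array 1 and 1.21 on array 2. Of them, 64 (62.7%) were at 1 or more on both arrays, where 4.21% of the single probes of the high-resolution part were. These are not like measures, since a gene's value is a mean over its probes and the single probes come from all places. On the 14 other arrays the mean over these genes lay between −0.47 and 1.38, with a median of 0.86, so other mutants had raised ratios here too. Array 1 was above these arrays, and array 2 was not above the highest, an *rrp6Δ* array. The 45 tRNA genes with no other such gene within 1000 bp had 2.00 and 1.12. Tandem tRNA genes share probes, and copies with near-identical sequence cannot be told apart by hybridization. The flank up to 600 bp downstream of the tRNA genes was at 1.06 and 0.66, with 26 of 102 (25.5%) at 1 or more on both arrays, where 2.39% of all windows of 7 neighbouring probes were. In *rrp6Δ* these flanks had 1.16 and 0.94.

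snoRNA genes had a mean log2 ratio of 1.63 and 0.93 over 28 genes, and their downstream flanks 0.90 and 0.41. Of these genes, 16 were at 1 or more on both arrays, against 4.21% of single probes, again not a like measure. snoRNAs guide the modification of rRNA. In *rrp6Δ* the snoRNA genes were at 1.43 and 1.15 and their flanks at 1.43 and 1.44. On the arrays of the other mutants, *rrp6Δ* among them, the snoRNA genes lay between −0.84 and 2.14, with a median of 1.15. Array 2 of *cid14Δ* was below this median, and array 1 was not above the highest, so raised ratios here were not particular to *cid14Δ*. The 4 snRNA genes, which encode RNAs of the spliceosome, were at 2.13 and 1.03 in *cid14Δ* and 0.76 and 0.50 in *rrp6Δ*. The arrays of the other mutants ranged from −1.44 to 1.61 at the snRNA genes, with a median of 0.63. Array 1 of *cid14Δ* was above this range and array 2 was within it. The 26 rRNA genes were at 0.85 and 0.42, from RNA that had been depleted of rRNA before labelling. Both values were below the median of the arrays of the other mutants, 1.04, which ranged from 0.18 to 1.69. For each of these 4 classes the value was lower on array 2 than on array 1, whereas the 451 flanks did not differ in this way (0.31 and 0.34). These means are descriptions without a test.

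**Figure D4:**
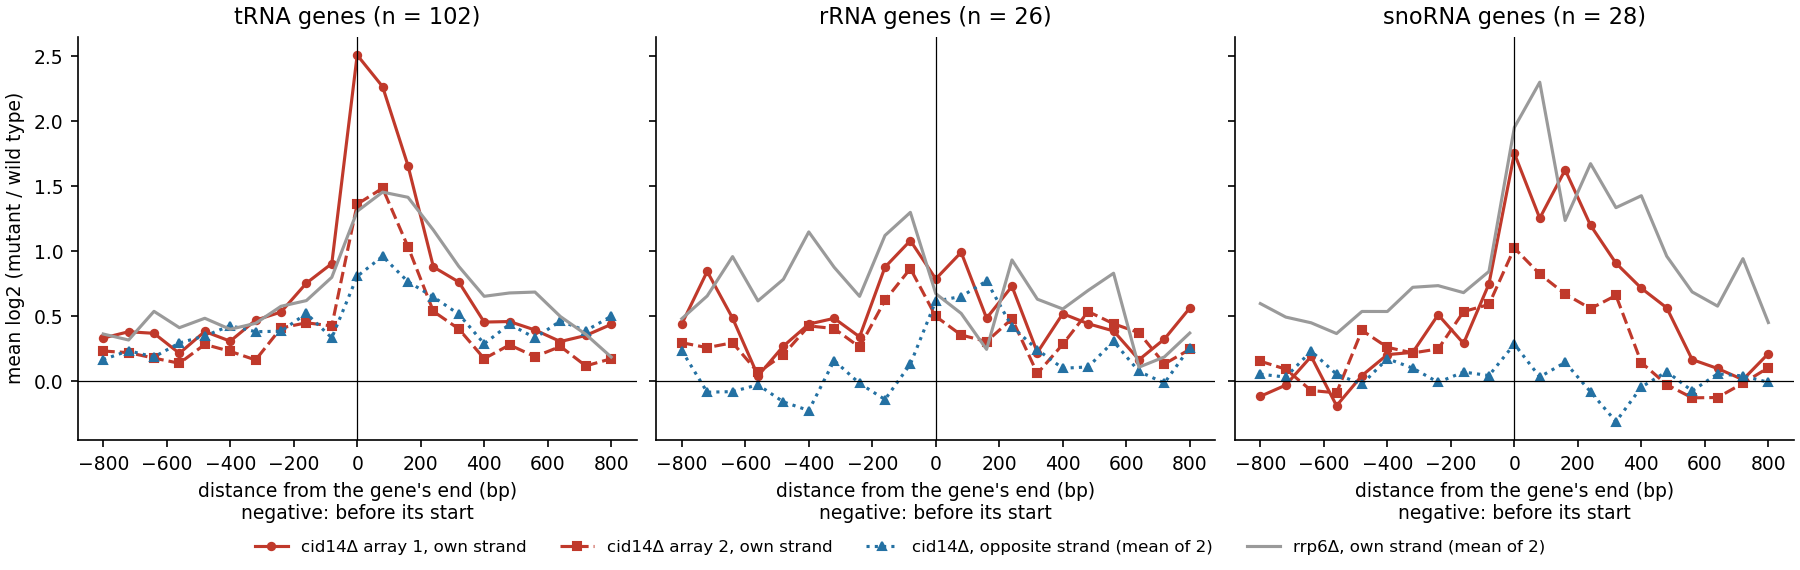
Mean log2 ratio of mutant to wild type (y axis) by distance from the end of tRNA, rRNA and snoRNA genes (x axis, bp, negative before the start) on the strand of the gene for each *cid14Δ* array and for *rrp6Δ*, and on the opposite strand for *cid14Δ*. At the end of tRNA genes the *cid14Δ* ratio is 2.51 on array 1 and 1.36 on array 2. It is 2.27 and 1.48 at 80 bp, so that array 2 is highest there, and 0.46 and 0.17 at 400 bp.

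Read without units, 263 runs of 4 or more adjacent same-strand probes had a log2 ratio of 1 or more on both arrays, and 43 had −1 or less. They held 1632 probes (1.11% of the high-resolution part) and 331 probes (0.225%). Of the probes in raised runs, 26.7% lay on the sense strand within 600 bp downstream of a unit, where 10.7% of all probes lie. A further 27.0% lay on the sense strand of units (41.2% of all probes), 18.9% antisense to them (28.8%) and 6.19% upstream antisense (8.08%). The remaining 21.3% lay elsewhere, where 11.2% of all probes lie. Lowered runs lay mostly on the sense strand of units, with 68.3% of their probes. Of the 263 raised runs, 47 (17.9%) lay within 600 bp of a tRNA, rRNA, snoRNA or snRNA gene, and of the 43 lowered runs 2 (4.65%). Of single probes 3.04% lie so near, which is not a like measure, since a run holds several probes. Of the 131 raised flanks, 31 (23.7%) lay near such a gene, against 58 of all 451 flanks (12.9%). The difference was not tested.

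The longest raised run, of probes 113904 to 113956 (27 probes), lay outside units and their flanks. Its log2 ratio was 3.25 and 3.06, and the 14 other arrays ranged from −0.71 to 1.13. In wild type 11 of its probes were above background on neither array, and with the dim signals set to the floor it was at 2.32. It lay among 9 raised runs on probes 113796 to 114180, which cover the end of chromosome II and the start of chromosome III. The run itself lies between the last probe placed on II and the first placed on III, so its chromosome was not determined. The run of probes 87801 to 87849 (25 probes), antisense to a unit, had 1.89 and 1.94, above the 14 other arrays, of which the highest was 1.38. The runs of probes 9294 to 9340 and 111559 to 111597, both on sense units, were as high or higher in *rrp6Δ*, at 3.09 and 3.26 and at 2.53 and 3.19, where *cid14Δ* had 2.87 and 2.87 and 1.65 and 2.15. The longest lowered runs fell in the low sense units on probes 2580 to 2735, 2257 to 2285, 9423 to 9449 and 9467 to 9493. Of these, the last 3 were below the 14 other arrays on both *cid14Δ* arrays.

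**Figure D5:**
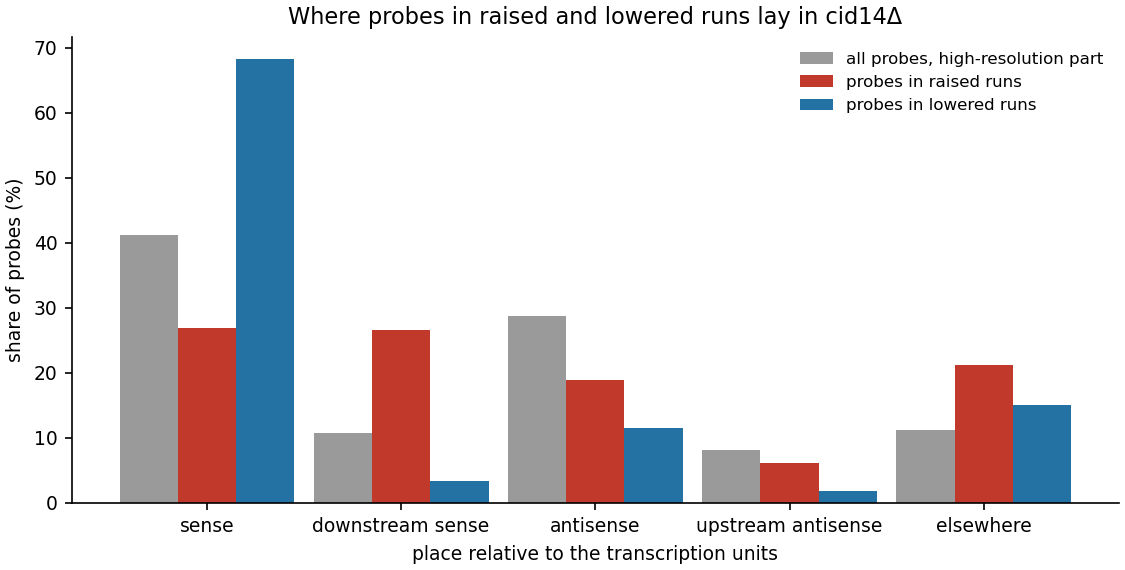
Share of probes (y axis, percent) by place relative to the transcription units (x axis) for all probes of the high-resolution part, for the 1632 probes in raised runs and for the 331 probes in lowered runs in *cid14Δ*. Downstream sense probes make up 10.7% of all probes and 26.7% of those in raised runs, probes elsewhere 11.2% and 21.3%, and sense probes 68.3% of those in lowered runs.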

How the data were processed

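The members and lists described here were chosen with earlier results of these data known. The authors deposited the scanner output of Agilent Feature Extraction 10.7.3.1 (10.7.1.1 for *rrp6Δ* array 1), whose processed signals are intensity values after background subtraction and dye normalization by the authors. They also deposited a series table of log2 ratios and a log10 ratio per probe, used as alternatives. Here log2(Cy5/Cy3) was taken from the processed signals. Control spots and the 22 and 258 outlier probes of the 2 arrays were left out. Units, found with Otsu's threshold on the smoothed control signal (running median of 5 probes, runs of at least 6, or 3 and 3 on the low-resolution part), replaced genes, since no column assigns a gene to a probe. Strands were assigned from 51 of 56 matched windows of the high-resolution part and 35 of 36 of the rest. The array header names another build than the assembly used for matching, so no coordinates are given.

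The 16 arrays entered a single limma fit with 9 groups (7 residual and 5.11 prior degrees of freedom). Named units, flanks and runs were the 10 highest and 10 lowest sense units and 10 highest flanks among those past the threshold with the same sign on both arrays, and the 5 longest runs in each direction. P-values rest on 2 biological replicates and the spread shared with the other groups. With 2 arrays, the precision is limited by their number and by how far signals exceed background. Each *cid14Δ* array lay on a slide of its own with arrays of other mutants, so the value of each array is its value within a slide. The main fit treated the 16 arrays as independent. With slide as a random block, arrays of a slide had a consensus correlation of 0.44. That fit called 388 sense units higher and 324 lower, and 136 flanks higher and 20 lower. Replicate numbers did not pair the arrays: over 21 pairs of groups the correlation of the deviations ranged from −0.44 to 0.62 and exceeded 0.1 in 8. The fit was tested on simulated data for *cid14Δ* against wild type, in which 199 of 200 features changed by 2 log2 units were recovered among 5884 with 8 false calls. The simulated noise was independent between arrays, without slide or dye effects. Smaller changes were not simulated, while called sense units reached down to log2 ratios of 0.34 and −0.33, so these rates do not cover them. R 4.3.3, limma 3.58.1, Python 3.11.15, numpy 2.4.6 and scipy 1.17.1 were used.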

Additional observations from a re-analysis of the deposited data

Results flagged for a closer look

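For 17 of the named units and flanks the ratio in *cid14Δ* differed from that in *rrp6Δ* by a test of the difference itself (limma contrast, adjusted p under 0.05 over all features). Of all 5888 features, 518 (8.8%) were higher and 1271 (21.6%) lower in *cid14Δ* by the same test. The named units and flanks were chosen for extreme ratios in *cid14Δ*, which favours such differences, so the 17 only describe the list. The values are log2 ratios in *cid14Δ* minus those in *rrp6Δ*. Sense units above *rrp6Δ* were those of probes 42633 to 42643 (3.24, adjusted p = 3.87e-06), 173938 to 173944 (3.12, adjusted p = 0.0026), 29512 to 29522 (2.55, adjusted p = 2.66e-05), 138734 to 138750 (1.86, adjusted p = 0.000232), 2621 to 2651 (1.70, adjusted p = 0.0104) and 151944 to 151948 (1.19, adjusted p = 0.00153). Of these, the unit of probes 2621 to 2651 was below wild type in both mutants. Sense units below *rrp6Δ* were those of probes 152856 to 152872, which holds the lost *cid14* probes (−3.84, adjusted p = 1.27e-07), 9413 to 9449 (−2.23, adjusted p = 0.000751), 120004 to 120034 (−1.68, adjusted p = 0.0203), 9461 to 9493 (−1.65, adjusted p = 0.000892), 2257 to 2283 (−1.39, adjusted p = 0.0304) and 148645 to 148653 (−0.93, adjusted p = 0.0165). Flanks above *rrp6Δ* were those of probes 113566 to 113578 (2.52, adjusted p = 0.000123), 43399 to 43411 (2.07, adjusted p = 0.000239) and 122260 to 122272 (1.61, adjusted p = 0.00368). Flanks below it were those of probes 99117 to 99129 (−3.19, adjusted p = 1.91e-06) and 112104 to 112116 (−1.79, adjusted p = 0.000564). With 1 or 2 arrays in a group, no array could be tested as an outlier.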

How the results depend on the processing

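The direction of the 30 named units and flanks held under the alternatives, except that against the mean of the 8 other mutants the unit of probes 9302 to 9352 was at −0.15 and that of probes 2621 to 2651 at 0.17. A further 7 of the 30 lost the call against the 8 other mutants and 2 without replicate 1.
The counts depended on the processing, and the cause was not tested. Counts that changed by 1.5 times or less are mostly left out below. Against 341 sense units higher and 276 lower, without an array between 97 and 157 were higher and between 45 and 121 lower. With an absolute log2 ratio of at least 1 they were 64 and 42. With only the 2 *cid14Δ* arrays in the fit 207 were higher, and against the 8 other mutants 212. With the median of all probes set to 0, 138 were lower.
Against 131 flanks higher and 15 lower, flanks of 400 bp gave 204 higher and flanks of 800 bp 73. The median over probes gave 86 and 4, neighbours on the same strand only 493 and 120, normexp with median centring 68 and 5, a unit threshold 1 log2 unit higher 219 and 27 and 1 lower 73 higher, a minimum log2 ratio of 1 63 and 2, and the 8 other mutants as reference 42 and 37. Only lower flanks moved with the median of all probes at 0 (9), normexp with loess (4), the series table (3), floored signals (5) and slide as a fixed term (33, from 13 arrays with 1 residual degree of freedom). Without an array, 67 to 89 flanks were higher and 0 to 12 lower.
Called PROMPT and AS features numbered 365, and 151 with the median over probes, 923 with same-strand neighbours, 129 and 97 with normexp and loess or median centring, 207 with the 2 arrays only, 163 with the series table, 132 with floored signals, 562 and 219 with the unit threshold higher and lower, 49 with a log2 ratio of 1, and 101 to 139 without an array. Flanks below *rrp6Δ* numbered 156, and 720 with same-strand neighbours and 247 with normexp and median centring.
The drop of the flanks from 160 to 560 bp, 0.42, was 0.16 and 0.17 with normexp and loess or median centring, 0.25 with the series table, 0.14 with floored signals, 0.26 against the 8 other mutants, 0.33 with same-strand neighbours or a higher unit threshold, and 0.34 with units from the 2 wild-type channels. The *cid14* probes were at −5.20 and −5.19 with normexp and −5.74 with floored signals.
Raised runs numbered 263, and 91 and 87 with normexp, 128 with floored signals, 129 against the 8 other mutants, 92 with at least 6 probes, 733 at a log2 ratio of 0.5 and 577 to 654 on single arrays. Lowered runs numbered 43, and 22 with either normexp setting, 28 with the series table, 23 with floored signals, 27 with the median of all probes at 0, 99 against the 8 other mutants, 18 with at least 6 probes, 299 at 0.5 and 171 to 268 on single arrays.
With the replicate number as a block, 349 sense units were higher and 298 lower, and 134 flanks higher and 17 lower. The pairing changed no other call by over 1.5 times. Floored signals, leaving out flanks near small RNA genes (100 higher) and the unit of the lost probes (275 lower), and isolated tRNA genes were chosen after seeing the data.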
